A study of Mus musculus with 6 samples.

Results

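The 4 Id genes and the 2 inhibitory Smad genes were followed in C2C12 cells, a mouse myoblast line (strain label C3H), across the 3 RNA libraries of a study of the forkhead factor Foxk1 and the co-repressor Sin3A. Id1, Id2, Id3, Id4, Smad6 and Smad7 were taken by symbol and gave 6 of the 22989 rows of each table. They are known targets of BMP signalling, but the group was chosen by its FPKM in these same libraries, so the levels and differences below are descriptions without a test.

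Polyadenylated RNA was measured in 3 conditions, each deposited as 1 sample. The number of cultures behind a sample is not given here. Control cells had received the siRNA labelled siNS and stayed in growth medium with serum. Starved cells were siNS cells moved for 4 h to HBSS, a salt solution with neither serum nor amino acids. Knockdown cells had received siRNA against Foxk1 and stayed in growth medium. Cells of every condition thus carried an siRNA, and starvation was not combined with the knockdown. Each deposited sample was treated as 1 library. There was thus no spread between replicates to measure, and nothing was tested. Values are FPKM, fragments per kilobase of transcript scaled to the mapped fragments of a library, with the authors' lower and upper 95% limits in parentheses. A gene is called apart in a pair of libraries where these limits do not overlap, which compares libraries and not conditions.

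Bone morphogenetic proteins (BMPs) bind type I and type II receptor kinases, which phosphorylate Smad1, Smad5 and Smad9, and these enter the nucleus with Smad4. Id genes are among the most direct targets of that signal. Id proteins hold a helix-loop-helix domain but no basic region, so they pair with E proteins and keep them off DNA, which in myoblasts restrains MyoD and its relatives. Smad6 and Smad7 are also induced by the signal and act as feedback inhibitors at the receptors, Smad6 mainly in the BMP branch and Smad7 in the BMP and TGF-beta branches.

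Promoter sequences from RefSeq (assembly GRCm38.p6) matched 4 members, Id2, Id3, Id4 and Smad6, while Id1 and Smad7 are named only. The 250 bases before the annotated start are shown for Id2 and Id3, both far lower in starved cells, and a 30-base stretch around the start for Smad6, because it holds a Smad-binding palindrome. Capitals mark exact matches to any of 8 motifs searched on both strands, from 250 bases before to 50 after the start. Id2 lies on the minus strand (chr12:25096093-25096342), Id3 on the plus strand (chr4:136143572-136143821) and the Smad6 stretch on the minus strand (chr9:64022045-64022074).
Id2: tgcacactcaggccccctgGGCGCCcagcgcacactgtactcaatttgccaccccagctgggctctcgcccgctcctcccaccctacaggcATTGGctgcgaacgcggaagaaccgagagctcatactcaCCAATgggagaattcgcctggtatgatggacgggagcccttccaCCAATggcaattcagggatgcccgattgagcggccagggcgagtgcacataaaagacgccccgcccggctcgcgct
Id3: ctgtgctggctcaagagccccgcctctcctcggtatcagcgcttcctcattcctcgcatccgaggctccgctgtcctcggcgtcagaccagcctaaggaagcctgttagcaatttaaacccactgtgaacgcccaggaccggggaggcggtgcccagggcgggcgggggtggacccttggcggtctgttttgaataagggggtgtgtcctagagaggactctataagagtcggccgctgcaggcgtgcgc
Smad6: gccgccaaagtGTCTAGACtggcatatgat

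The motif GGCGCC, a GC-rich sequence bound by Smad1 and Smad5 and its own reverse complement, occurred in Id2 (positions -231 to -226 from the start) and Id4 (-148 to -143), and in 11.9% of all 32851 promoters of the table. The 250 bases before the start were 62.8% G or C in Id2, 75.6% in Id4, 62.8% in Id3 and 66.8% in Smad6. The median over all promoters was 52.4%, so the 11.9% comes from promoters mostly poorer in GC. GTCTAGAC, the palindromic Smad-binding element, spanned the Smad6 start from -4 to 4, and 0.213% of all promoters held it. CCAAT boxes, on either strand, occurred at 3 places in Id2, 2 in Id4 and 1 in Smad6, the last after the start, and in 37.4% of all promoters. The other motifs had no match in the 4 windows. Among all promoters, the cyclic AMP response element TGACGTCA was found in 1.79%, the forkhead motif TGTTTAC in 3.65% and the Egr1 motif GCGTGGGCG in 0.612%. The canonical E-box CACGTG, a palindrome, was found in 7.15%, and the core promoter box TATAAA in 13.6%. Id3 held no match to any of the 8 motifs. A match describes letters only, and the Foxk1 and Sin3A regions of the study, on build mm9, were not placed at these genes.

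Id1, Id2 and Id3 were the abundant members. Id3 stood at 246 FPKM (181 to 259) in control cells, 11.9 (8.35 to 13.8) in starved cells and 411 (294 to 438) in knockdown cells. All pairs of libraries were apart, with starved cells lowest and knockdown cells highest. The control level was 20.7 (13.1 to 31.0) times the starved level, with the range allowed by the limits in parentheses. On the log2(FPKM + 1) scale, used for all fold changes below, starved minus control was -4.26, at rank 24 from the lowest among 11396 rows with 1 FPKM or more in either library.

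Id1 stood at 98.5 FPKM (71.9 to 104) in control cells, 7.27 (5.0 to 8.89) in starved cells and 127 (90.6 to 135) in knockdown cells. Starved cells were below both others with limits apart, whereas control and knockdown limits overlapped, at a knockdown to control ratio of 1.29 (0.873 to 1.88). The control level was 13.5 (8.08 to 20.7) times the starved one. Id2 stood at 74.8 FPKM (53.2 to 76.7) in control cells, 7.47 (4.94 to 8.66) in starved cells and 77.3 (54.4 to 81.4) in knockdown cells. Its order was like that of Id1, with a starved fold change of -3.16 and a knockdown to control ratio of 1.03 (0.709 to 1.53).

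The deposited means of Id1, Id2 and Id3 sat near the upper end of their own intervals. In control cells they lay 0.836, 0.919 and 0.839 of the way from the lower to the upper limit. Among 8693 rows at 5 FPKM or more there, the median position was 0.501, and 7.76% of rows lay at 0.8 or more. In knockdown cells the positions of Id1, Id2 and Id3 were 0.812, 0.847 and 0.812. There 6.28% of 8802 rows at 5 FPKM or more lay at 0.8 or more. In starved cells the positions of these genes were lower, from 0.583 to 0.680. Whether this bears on the ratios was not tested.

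Id4, best known from neural tissue, was under 1 FPKM in all 3 libraries and entered no comparison. It was at 0.574 FPKM (0.320 to 0.810) in control cells, 0.249 (0.0845 to 0.401) in starved cells and 0.210 (0.0634 to 0.338) in knockdown cells, with limits overlapping in every pair.

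**Figure D1:**
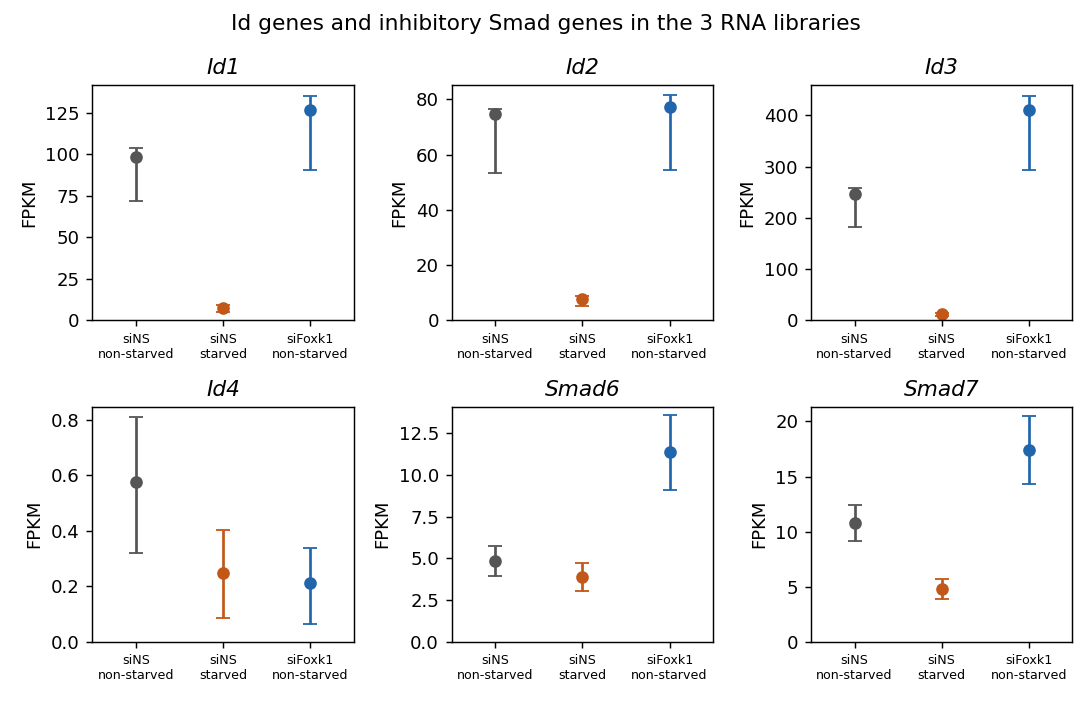
FPKM (vertical axis, a separate scale for each gene) of the 6 members in the siNS non-starved, siNS starved and siFoxk1 non-starved libraries, with the authors' 95% limits as bars. Id1, Id2, Id3 and Smad7 are lower in starved cells with limits apart from control cells, and Id3, Smad6 and Smad7 are higher in knockdown cells with limits apart.

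The inhibitory Smad genes had lower levels. Smad7 was at 10.8 FPKM (9.17 to 12.4) in control cells, 4.78 (3.89 to 5.67) in starved cells and 17.4 (14.3 to 20.5) in knockdown cells. As for Id3, all pairs were apart and the order was the same. Relative to control cells the ratio was 0.443 (0.314 to 0.619) in starved and 1.61 (1.15 to 2.24) in knockdown cells. The starved fold change of -1.03 just passed 2-fold, and did not with a pseudocount of 5 (-0.69), an equal FPKM sum (-0.94) or an equal upper quartile (-0.99).

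Smad6 was at 4.86 FPKM (3.96 to 5.75) in control cells, 3.88 (3.02 to 4.72) in starved cells and 11.3 (9.11 to 13.6) in knockdown cells. Unlike the other expressed members, it overlapped in starved and control cells, at a ratio of 0.798 (0.526 to 1.19). Knockdown cells were apart from both others, at 2.33 (1.59 to 3.42) times the control. Its knockdown fold change of 1.07 was the only one of a member to reach 2-fold, and it fell short with a pseudocount of 5 (0.73). The Smad7 level was 2.22 times that of Smad6 in control, 1.23 times in starved and 1.53 times in knockdown cells. The limits of Smad6 and Smad7 overlapped in starved cells and were apart in control and knockdown cells.

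Of the 5 members at 1 FPKM or more, 4 were 2-fold or more lower in starved cells, against 3% of all rows, and the same 4 were lower apart (10.9% of all rows). None was 2-fold higher or higher apart (3.12% and 12.2% of all rows). In knockdown cells 1 of 5 was 2-fold or more higher (2.61% of all rows) and 3 were higher apart (8.89%), and none was 2-fold lower or lower apart (1.45% and 7.13%). The member medians were -3.16 for starved and 0.64 for knockdown cells, against -0.01 and 0.02 over all rows. With FPKM scaled to an equal sum, the 1246 rows lower apart and 1390 higher apart in starved cells became 895 and 1780, while the member counts apart stayed at 4 and 0. Since these values chose the members, the counts describe the choice. Both comparisons use the same control library.

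Foxk1 itself stood at 9.09 FPKM in control cells, 16.1 in starved cells and 5.15 in knockdown cells, lower apart in knockdown cells and higher apart in starved cells. FPKM summed to between 527673 and 566803 per library, and read depth is unknown. All 7 myoblast markers found as single rows were at 1 FPKM or more in every library. Endothelial cells also express Id1 and Smad6, and no endothelial marker of 6 reached 1 FPKM (sums from 0.223 to 0.390 FPKM). Of 6 bone markers Sp7, Bglap, Alpl and Ibsp stayed under 1 FPKM, Ibsp listed at 0 throughout. The bone list summed to 2889, 1541 and 2723 FPKM in control, starved and knockdown cells, of which Spp1 alone gave 2884, 1540 and 2712. Dmp1 was at 5.29, 0.763 and 10.6 FPKM, lower apart in starved and higher apart in knockdown cells. Of 6 adipocyte markers 2 were expressed (sums 15.9 to 21.9 FPKM, Plin1 listed at 0), of 6 blood cell markers 2 (8.44 to 15.4 FPKM, Emr1 listed at 0) and of 6 epithelial markers 1, Krt14 (6.41, 3.59 and 14.7 FPKM for the list). The bone, epithelial, adipocyte and myoblast sums were lowest in starved cells (myoblast list 804, 692 and 852 FPKM in control, starved and knockdown cells). The endothelial and blood cell sums were highest there. The part of these lists in the members' differences was not tested. In bulk RNA, fewer cells of a type and less RNA per cell cannot be told apart.

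The make-up of the Id pool differed along with its size. Summed over the 4 genes, Id transcripts came to 420.2 FPKM in control, 26.9 in starved and 615 in knockdown cells. The summed limits were 306 to 440, 18.4 to 31.8 and 439 to 655 FPKM in that order. Control and knockdown ranges thus overlapped, and the starved range lay below both. Id3 supplied 58.6% of the sum in control, 44.3% in starved and 66.8% in knockdown cells. The share of Id2 was 17.8%, 27.7% and 12.6%, and that of Id1 23.4%, 27.0% and 20.6%. In starved cells the limits of Id1, Id2 and Id3 all overlapped one another, whereas in control and knockdown cells Id3 was above both others with limits apart.

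E proteins are the main partners of Id proteins. Tcf3, which encodes E12 and E47, was at 49.9 FPKM (40.7 to 60.8) in control cells, 39.4 (31.2 to 47.2) in starved cells and 61.1 (48.4 to 74.4) in knockdown cells, overlapping control cells in both comparisons. Tcf12, which encodes HEB, was at 45.6 FPKM (38.9 to 52.3) in control cells, 78.8 (62.8 to 94.7) in starved cells and 56.2 (47.3 to 65.1) in knockdown cells, and Tcf4, which encodes E2-2, at 22.4 FPKM (18.4 to 26.3) in control cells, 35.1 (27.9 to 44.5) in starved cells and 34.3 (27.7 to 40.6) in knockdown cells. Tcf12 was higher apart in starved cells and Tcf4 in starved and knockdown cells, so no E protein gene was lower apart where Id1, Id2 and Id3 were lowest.

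FPKM is per length, so sums of the families can be set side by side. E protein transcripts summed to 118 FPKM in control, 153 in starved and 152 in knockdown cells. The ratio of Id to E protein transcripts was 3.56 in control cells (2.20 to 4.49 from the summed limits), 0.176 in starved cells (0.0985 to 0.261) and 4.06 in knockdown cells (2.44 to 5.31). E protein transcripts exceeded Id transcripts in starved cells and were below them in the other libraries. Protein was not measured.

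Myogenic bHLH factors pair with E proteins to activate muscle genes. Myod1 was at 70.1 FPKM (57.6 to 82.3) in control cells, 10.7 (8.49 to 12.8) in starved cells and 95.8 (76.9 to 114) in knockdown cells, lower apart in starved cells and overlapping in knockdown cells. Myf5 was at 16.8 FPKM (12.2 to 19) in control cells, 29.6 (20.6 to 31.1) in starved cells and 17.5 (12.6 to 20.4) in knockdown cells, higher apart in starved cells. Myog, which encodes the differentiation factor myogenin, was at 14.2 FPKM (11.3 to 16.8) in control cells, 6.02 (4.69 to 7.30) in starved cells and 45.4 (36.0 to 53.9) in knockdown cells, apart from control cells in both comparisons. Myf6 stayed under 1 FPKM. Id transcripts were 4.15 times the sum of these 4 genes in control, 0.580 times in starved and 3.87 times in knockdown cells.

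**Figure D2:**
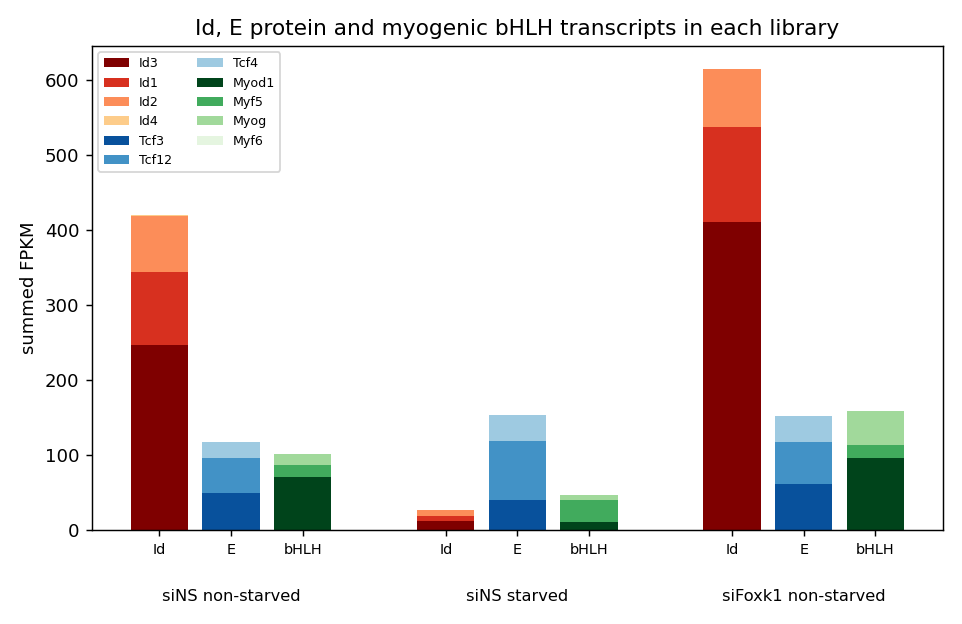
Summed FPKM (vertical axis from 0) of Id, E protein and myogenic bHLH genes in each of the 3 libraries, each bar stacked by gene. The Id bar is 420.2, 26.9 and 615 FPKM in the siNS non-starved, siNS starved and siFoxk1 non-starved libraries, and the E protein bar 118, 153 and 152 FPKM.

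Among known targets of MyoD with E proteins, Myog alone (1 of 14 expressed) was lower apart in starved cells, and 4 were higher apart (median 0.27). Over all rows 10.9% were lower and 12.2% higher apart, so the count of 1 is near its share. The most abundant was the cell cycle inhibitor gene Cdkn1a, at 169 FPKM in control cells, 245 in starved cells and 189 in knockdown cells, higher apart in starved cells. In knockdown cells 5 of 15 were higher and 0 lower apart (median 0.22), beside 8.89% and 7.13% of all rows. The largest knockdown fold changes were those of Acta1, which encodes skeletal actin (2.40), Myog (1.61), the muscle creatine kinase gene Ckm (1.47) and the acetylcholine receptor subunit gene Chrng (1.10). Ckm was under 1 FPKM in control cells and entered only through knockdown cells.

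Among other helix-loop-helix genes, 3 of 9 expressed were lower apart and 1 higher apart in starved cells, beside 10.9% and 12.2% of all rows. In knockdown cells 1 was lower and 1 higher apart, beside 7.13% and 8.89% of all rows, so the counts of 1 are near those shares. Hes1, a repressor gene downstream of Notch, was at 36.6 FPKM (27.4 to 39.8) in control cells, 15.9 (11.3 to 18.8) in starved cells and 41.6 (30.4 to 45.9) in knockdown cells, lower apart in starved cells. Msc, which encodes the MyoD repressor musculin, was at 5.65 FPKM in control cells, 3.49 in starved cells and 2.00 in knockdown cells, lower apart in both comparisons. The mesenchymal factor gene Twist2 was lower apart in starved cells (-0.81). Scx, which encodes scleraxis and was the most abundant, and the Notch target gene Hey1 overlapped control cells in both comparisons.

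Upstream of the members, 1 of 14 BMP ligand genes reached 1 FPKM. Bmp4 was at 6.01 FPKM (4.61 to 7.49) in control cells, 7.4 (5.72 to 9.02) in starved cells and 22.1 (17.3 to 27.0) in knockdown cells. Knockdown cells were apart from both others, at 3.67 times the control, and starved and control limits overlapped.

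Of TGF-beta and activin ligand genes, 3 of 8 expressed were lower apart in starved cells (median -0.49), beside 10.9% of all rows. In knockdown cells 5 of 7 were higher and 1 lower apart (median 0.80), beside 8.89% and 7.13% of all rows. Tgfb1 stood at 46.3 FPKM in control cells, 28.2 in starved cells and 88.5 in knockdown cells, apart from control cells in both. The activin subunit genes Inhba and Inhbb had starved fold changes of -1.25 and -1.03 and knockdown fold changes of 1.18 and 0.80, all apart. Tgfb3 was higher apart in knockdown cells (1.05). The gene lower apart there was Gdf11 (-0.76), named after its value was seen.

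Of 14 receptor and co-receptor genes expressed, none was lower apart in starved cells and 2 were higher apart, the BMP co-receptor gene Rgma (0.93) and the TGF-beta co-receptor gene Tgfbr3 (0.91), the latter under 1 FPKM in control cells. This count is near the 12.2% of all rows that were higher apart. In knockdown cells 2 of 12 were higher apart, beside 8.89% of all rows. They were the hemojuvelin gene Hfe2 (1.45) and the type II BMP receptor gene Bmpr2. Bmpr2 was at 15.3 FPKM (12.1 to 18.5) in control cells, 16.3 (12.5 to 20.1) in starved cells and 33.5 (26.9 to 40.0) in knockdown cells. Tgfbr2, the most abundant, overlapped in both comparisons. The type I receptor genes Acvr1 and Bmpr1a, named for their role after their values were seen, also overlapped, with Acvr1 at 32.2 FPKM in control cells, 33.1 in starved cells and 41.4 in knockdown cells and Bmpr1a at 23.0 FPKM in control cells, 29.3 in starved cells and 25.1 in knockdown cells.

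The Smads that carry the BMP signal were expressed in every library. Smad1 was at 22.9 FPKM in control cells, 18.5 in starved cells and 28.0 in knockdown cells, and Smad5 at 21.3 FPKM in control cells, 28.8 in starved cells and 15.6 in knockdown cells. Smad9 was at 1.32 FPKM in control cells, 1.58 in starved cells and 1.88 in knockdown cells, and the common partner gene Smad4 at 32.3 FPKM in control cells, 46.9 in starved cells and 34.5 in knockdown cells. All 4 overlapped control cells in both comparisons. Of the TGF-beta branch, Smad2 overlapped too (10.7 FPKM in control cells, 10.4 in starved cells and 14.4 in knockdown cells). Smad3 was the only signalling Smad gene apart, at 14.2 FPKM (12.1 to 16.2) in control cells, 26.7 (22.5 to 30.9) in starved cells and 21.0 (17.7 to 24.3) in knockdown cells, higher in both comparisons. Over all rows 12.2% were higher apart in starved and 8.89% in knockdown cells, so 1 of 6 is near those shares. The shares lower apart were 10.9% and 7.13%, beside 0 of 6.

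Secreted antagonists bind the ligands outside the cell. Of 11 expressed, 3 were lower apart and 0 higher apart in starved cells, beside 10.9% and 12.2% of all rows. In knockdown cells 4 were higher apart and 0 lower apart, beside 8.89% and 7.13% of all rows. The BMP antagonist gene Grem1 was the most abundant, at 296 FPKM (243 to 348) in control cells, 82.0 (67.2 to 96.8) in starved cells and 269 (216 to 323) in knockdown cells, lower apart in starved cells. The activin antagonist gene Fst stood at 3.66 FPKM in control cells, 1.05 in starved cells and 8.61 in knockdown cells, apart from control cells in both comparisons. Fstl1 (1.45) and Chrdl1 (1.48) were higher apart in knockdown cells, and Chrdl1 was under 1 FPKM in control cells.

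Inside the cell, none of 16 expressed regulators of Smad signalling other than Smad6 and Smad7 reached 2-fold in either comparison. Over all rows at most 3.12% did so in either direction, so 0 of 16 is near that share. In starved cells 1 was lower and 2 were higher apart, near the 10.9% and 12.2% of all rows. In knockdown cells 4 were higher apart and 0 lower apart, beside 8.89% and 7.13% of all rows. Pmepa1, a TGF-beta target that restrains Smad2 and Smad3, was at 56.7 FPKM in control cells, 35.8 in starved cells and 100.4 in knockdown cells, apart from control cells in both. The Smad co-repressor genes Skil (0.87) and Ski (0.59) were higher apart in knockdown cells, and the co-repressor gene Tgif1 (0.61) in starved cells. Fkbp1a, which encodes FKBP12 and was the most abundant, overlapped in both. The pseudoreceptor gene Bambi, named after its values were seen, was under 1 FPKM throughout.

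Of other known BMP target genes, 6 of 10 expressed were lower apart and 0 higher apart in starved cells (median -0.69). The shares of all rows were 10.9% and 12.2%. Atoh8, which encodes a bHLH factor, was at 9.73 FPKM (8.23 to 11.2) in control cells, 4.30 (3.46 to 5.14) in starved cells and 15.7 (13.1 to 18.3) in knockdown cells, apart in all pairs. The homeobox genes Dlx2 (-1.01), Msx1 (-0.98) and Dlx3 (-0.84) were lower apart too, Dlx3 being the most abundant at 29.4 FPKM in control cells. In knockdown cells 2 of 11 were higher and 0 lower apart (median 0.31), beside 8.89% and 7.13% of all rows. The 2 were Atoh8 and the osteoprotegerin gene Tnfrsf11b. Tnfrsf11b was at 0.110 FPKM in control and 1.22 in knockdown cells and entered only through the latter.

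Of TGF-beta target genes, 6 of 14 were lower and 2 higher apart in starved cells (median -0.21), beside 10.9% and 12.2% of all rows. The 2 are thus near the share of all rows. In knockdown cells 9 of 14 were higher apart and 0 lower apart (median 0.60), beside 8.89% and 7.13% of all rows. The matricellular gene Ctgf had the lowest starved fold change of the list (-3.89). The transcription factor genes Snai1 (-0.94) and Snai2 (1.10) were apart in opposite directions in starved cells. Fn1, which encodes fibronectin and was the most abundant, stood at 589 FPKM in control cells, 590.1 in starved cells and 1041 in knockdown cells, higher apart in knockdown cells.

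Over all pathway lists, each gene counted once, 22 of 100 expressed genes were lower and 14 higher apart in starved cells, a split that became 21 and 21 with FPKM scaled to an equal sum. Over all rows 10.9% were lower and 12.2% higher apart, so the 14 are near the share of all rows. In knockdown cells 2 of 99 were lower apart and 32 higher apart, counts that were the same with that scaling, beside 7.13% and 8.89% of all rows. The medians were -0.03 and 0.31. At 2-fold, 11 were lower and 1 higher in starved cells, and 1 was lower and 12 higher in knockdown cells. Over all rows 3% were lower and 3.12% higher in starved cells, and 1.45% lower and 2.61% higher in knockdown cells. The counts of 1 are thus near or below their shares. The lists were written with earlier results of these libraries known, so the counts describe them and test nothing. Of the genes counted for starved cells, 4 passed the filter only through starved cells and 4 only through control cells, and of those counted for knockdown cells, 3 passed only through knockdown cells.

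**Figure D3:**
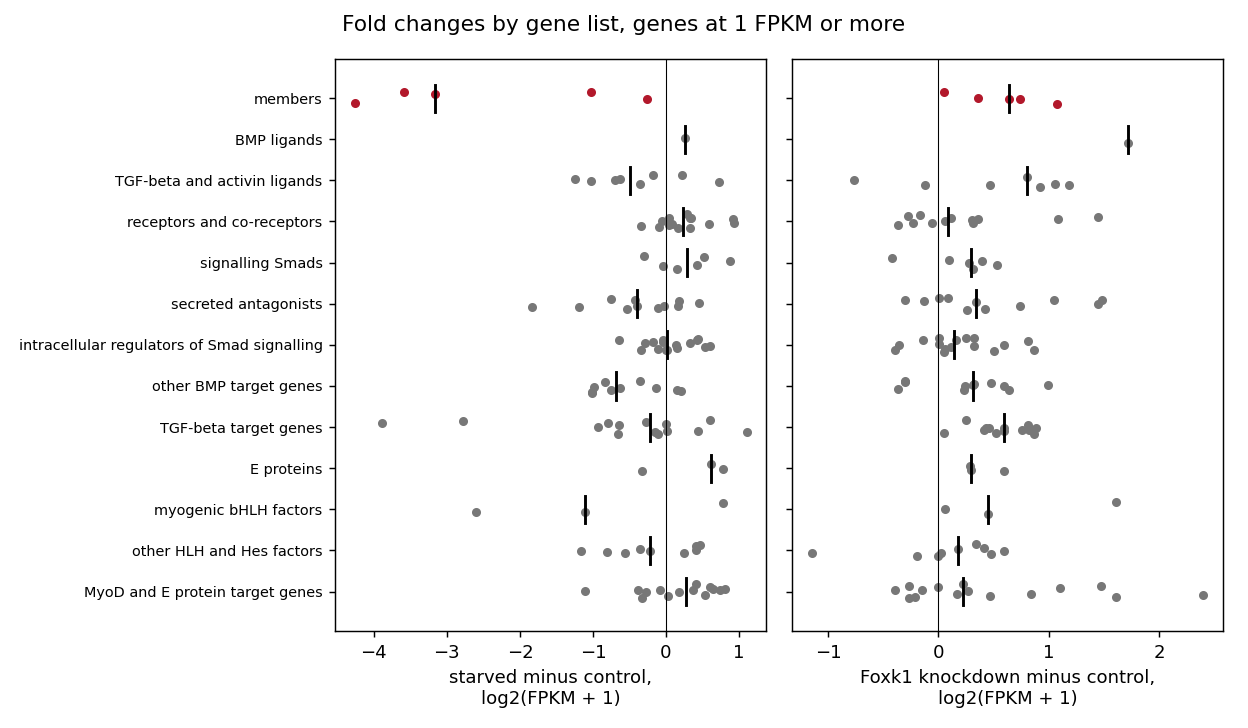
Fold change on the log2(FPKM + 1) scale (horizontal axes) of the expressed genes of each list, for starved (left) and Foxk1 knockdown (right) cells against control cells, with points for genes and black bars for list medians. The member medians are -3.16 and 0.64, and those of the signalling Smads 0.29 and 0.30.

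Genes with a pattern most like each member were sought among 8957 candidate rows at 5 FPKM or more, by the distance between the pairs of fold changes, which rest on 3 libraries and a shared control. Nearest to Id1 were the semaphorin gene Sema7a (distance 0.20), the matricellular gene Cyr61 (0.26) and the ERK phosphatase gene Dusp6 (0.42). Nearest to Id2 were Dusp6 (0.12), the ERK phosphatase gene Dusp5 (0.39) and Errfi1, which encodes a feedback inhibitor of the EGF receptor (0.43). Nearest to Id3 were Ctgf (0.37), Sema7a (0.58) and Cyr61 (0.64). Few rows lay within a distance of 1, namely 13 for Id1, 18 for Id2 and 4 for Id3, against 2318 for Smad6 and 1951 for Smad7, so a near gene says little for the Smads. Nearest to Smad6 were Dffa (0.06), Ppp2r1a (0.07) and Creb3l1 (0.08), and nearest to Smad7 were Atoh8 (0.01), Has2as (0.04) and Kctd11 (0.07). Has2as is antisense to Has2, and whether reads were assigned by strand is not given here.

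**Figure D4:**
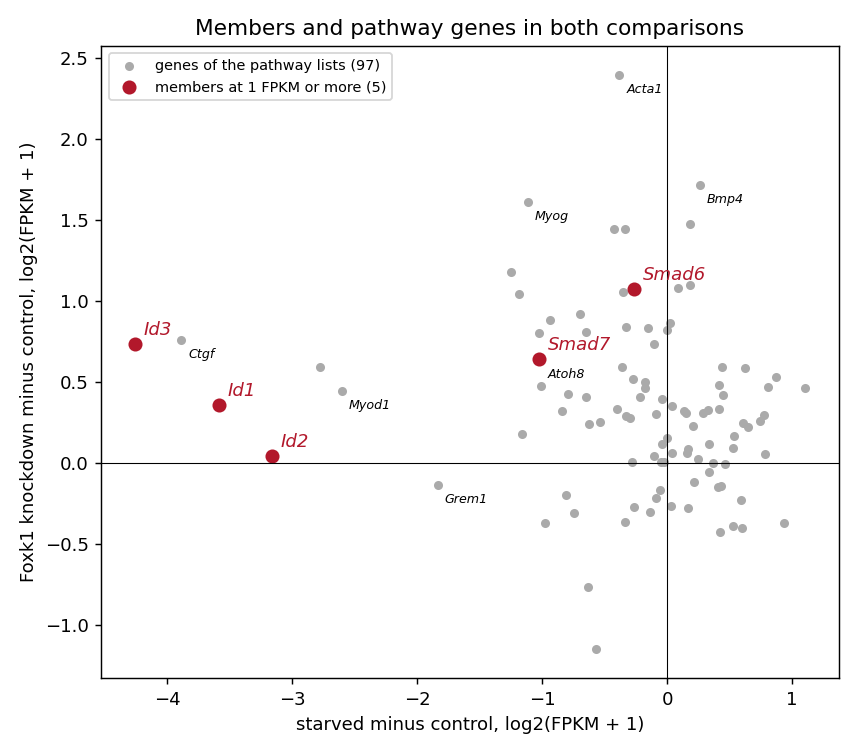
Starved minus control (horizontal axis) against Foxk1 knockdown minus control (vertical axis), both as differences of log2(FPKM + 1), for the 5 expressed members in red and genes of the pathway lists in grey, with the control library shared by both axes. Id1, Id2 and Id3 lie between -4.26 and -3.16 on the horizontal axis, and Smad6 and Smad7 at -0.26 and -1.03.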

How the data were processed

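Polyadenylated RNA of 3 C2C12 libraries, grouped by sample title, was analysed. Per the file headers, the authors deposited a mean FPKM with lower and upper 95% limits for each gene symbol. The submitters' processing notes list Bowtie2 2.1.0, TopHat2 2.0.9, Cuffdiff, Cufflinks 2.1.1 and mm9, with no role for each. The annotation, any pooling of replicates and the method behind the limits: not given in the sources used here. Read depth is unknown.

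Of 22989 rows, 1 with limits in the wrong order was left out. A fold change was the difference of log2(FPKM + 1) between a library and the control, a scale that makes changes of low genes look smaller. Rows needed 1 FPKM in either library. With 1 library per group no test was run. The code for the 2-fold call was checked on simulated fold changes without noise, which checks the code and not the samples. The call of limits apart was not checked in that way.

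The members and all lists were chosen with earlier results of these data known. There were 12 pathway and 6 marker lists, and 4 of 181 listed genes were not found as single rows. Of the listed genes 15 stood in more than 1 list, so the counts of separate lists partly repeat the same genes. Named were all members, Foxk1, E proteins, myogenic bHLH factors and signalling Smads, from each other pathway list the most abundant gene in the control and up to 4 with the largest fold changes, and the 3 nearest rows to each member. For 1 gene that this rule names, the result is not reported here. Promoters came from RefSeq (GRCm38.p6). A planned comparison of protein sequences was not run, and the ChIP regions (mm9) were not used here. Alternatives covered pseudocount, filter, scaling, fold threshold, the Id sum without Id4 and the promoter window. Python 3.11.15, numpy 2.4.6, pandas 2.3.3 and matplotlib 3.10.9 were used.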

Additional observations from a re-analysis of the deposited data

How the results depend on the processing

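None of 59 fold changes of the 5 expressed members under other pseudocounts, filters and scalings changed direction (Id4 was not run, nor starved Smad6 at 5 FPKM or more). A pseudocount cannot reverse a fold change and a filter leaves its value alone, so only the scalings could have done so. The scalings shifted a library by at most 0.103 log2. Members 2-fold lower in starved cells numbered 4, and 3 (without Smad7) with a pseudocount of 5 or either scaling. The member 2-fold higher in knockdown cells, Smad6, was lost with a pseudocount of 5 (0), and 3 were higher at 1.5-fold. The 4 members lower apart in starved cells and the 3 higher apart in knockdown cells kept these counts with each filter and either scaling. Pseudocounts and the fold threshold do not enter that call, so they could not change it. Pathway genes lower in starved cells went from 11 to 4 with a pseudocount of 5 and 22 at 1.5-fold, and those higher from 1 to 4 with a pseudocount of 0.1, 2 with an equal sum and 14 at 1.5-fold. Pathway genes lower in knockdown cells went from 1 to 0 with a pseudocount of 5 and 2 at 1.5-fold, and those higher from 12 to 5 and 28. Over all rows of starved cells, 342 lower and 356 higher became 179 and 154 with a pseudocount of 5 and 1085 and 1175 at 1.5-fold, with 562 higher at a pseudocount of 0.1. For knockdown cells, 165 lower and 296 higher became 74 and 148, and 706 and 879, with 269 lower at a pseudocount of 0.1. Before the start alone, GTCTAGAC matched 0 member promoters in place of 1, since the Smad6 match spans the start. Without Id4 the Id to E protein ratios were 3.56, 0.174 and 4.06. The cause of the shifts with an equal sum was not tested. No paired analysis was possible because each group has 1 deposited sample.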
